A study of Mus musculus with 16 samples.

Results

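The response of mouse monocytes to 24 h with interferon-γ (IFN-γ) plus CD40 ligand was measured by RNA sequencing in 8 of the study's 16 libraries. They were chosen by title, as the 4 libraries named for IFN-γ plus CD40L at 24 h and the 4 named for no stimulus at 24 h, and NFAM1+/+ and NFAM1-/- genotypes were pooled. The other 8 libraries are the same comparison at 6 h and were used only where the 2 times are compared. Monocytes of C57BL/6 mice were plated at 20000 cells per well and left untreated, or given IFN-γ for 1 h before MegaCD40L, a multimeric CD40 ligand, was added at 1 µg/mL. Every stimulated library received both, so the effects of IFN-γ and of CD40L cannot be told apart. RNA was sequenced as non-stranded polyA libraries on a HiSeq2000. The labels give the IFN-γ concentration as 100 µg/mL. The study's methods give that dose for stimulating monocytes but a lower one for the sequenced cells, so the dose is uncertain. NFAM1-/- mice carry a deletion of exons 2 and 3 of Nfam1 made with Cas9 in C57BL/6NTac zygotes. In 4 of the 8 libraries (44, 46, 56 and 58) the title and the genotype tag name different genotypes. Each group holds 2 libraries titled NFAM1+/+ and 2 titled NFAM1-/-, and also 2 of each by tag. The labels call the cells PBL monocytes, the study's methods isolate monocytes from bone marrow, and a protocol in the labels speaks of human blood cells, although all libraries are labelled mouse. The age of the mice is not given. The study says how many mice were used in all but not which stand behind each library, so p-values measure only the spread between these samples, which may be technical.

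Libraries are called by the number in brackets in their titles, and values are given in the order 43, 44, 45, 46 for unstimulated and 55, 56, 57, 58 for stimulated cells. Expression is in CPM, the usual measure of read counts relative to library size, here the authors' scaled size. Fold changes are differences of mean log2 CPM, stimulated minus unstimulated, with the standard error of the limma fit. A gene was called when it changed at least 2-fold with an adjusted p under 0.05 over all genes tested. The libraries held 56328053 to 77256316 reads on the listed genes, and 3 reads, taken as the floor, were worth 0.0345 to 0.0451 CPM. At this depth the spread between libraries, not counting error, limits the precision of all but the lowest genes.

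IFN-γ binds a receptor of IFNGR1 and IFNGR2 chains, whose JAK kinases set off the induction of IRF1 and further transcription factors, which switch on genes for antigen presentation, chemokines and cell-autonomous defence. CD40, a receptor of the TNF receptor family, recruits TRAF adaptors and activates both the canonical and the non-canonical NF-κB pathways, and in monocytes and macrophages the pair of signals is a classical inducer of IL-12, TNF and nitric oxide.

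Nfam1 itself, the gene deleted in the study, stood at 441, 463, 495 and 391 CPM in unstimulated and 201, 271, 252 and 223 CPM in stimulated libraries. Every stimulated library was below every unstimulated one. The log2 fold change was -0.92 ± 0.10 (SE, limma adjusted p = 1.1e-05), short of the 2-fold minimum, and it passed that minimum when each library was scaled to its own total of reads (-1.26), under quantile normalization (-1.38) and with only the libraries without a genotype conflict (-1.05). These are whole-gene values that include the exons left in place, so they check nothing about the deletion or about the genotype labels.

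The monocyte label was checked against 10 markers, all of which were listed. Lyz2, encoding lysozyme, was the most abundant at 19866–23256 CPM in unstimulated and 4827–7390.0 CPM in stimulated libraries, followed in unstimulated cells by Mpeg1 (3881–3997 CPM) and the CSF1 receptor gene Csf1r (2606–3286 CPM). The stimulated cells still carried monocyte transcripts, with Ly6c2 at 2125–2965 CPM and Mpeg1 at 3041–3185 CPM, but 7 of the 10 markers fell and 1 rose at 24 h, and their summed level was 30956–34529.5 CPM in unstimulated and 11335–14626 CPM in stimulated libraries. Markers of other cell types were less abundant in sum, and several of these sets fell as well. Of 14 neutrophil markers 13 were tested and 12 fell, with a summed level of 1142–1703 CPM in unstimulated and 365–448 CPM in stimulated libraries. Csf3r, which monocytes express too, was their most abundant gene. S100a9 fell from 157–284 CPM to 34.6–62.4 CPM and Mmp8 from 79.5–227 CPM to 2.80–5.10 CPM, and the low Ly6g, at 1.31–2.21 and 0.934–1.85 CPM, was the tested marker that was not called. Of 10 B cell markers 5 were listed, Ms4a1 and Pax5 not among them, and 2 of the 3 tested fell, with a sum of 135–209 and 41.1–51.6 CPM that was mostly Ighm. Eosinophil markers summed to 34.6–91.4 and 5.16–11.9 CPM, led by Prg2, and 3 of the 3 tested fell. Of 8 dendritic cell markers 7 were tested, with 2 higher and 3 lower, and their sum was 236–342 and 581–668 CPM, with Bst2, also an interferon-stimulated gene, the most abundant. Bst2 rose from 56.2–94.8 to 507–605 CPM and Zbtb46 from 4.07–7.25 to 13.9–21.7 CPM, whereas Flt3 fell from 67.3–145 to 3.42–4.09 CPM, Siglech from 11.0–23.9 to 2.64–3.19 CPM and Itgax from 66.5–77.6 to 18.1–36.1 CPM. The Cd3 chains and the T cell receptor constant genes were not listed, nor were Ncr1 and Nkg7 of NK cells, and the listed T cell markers, Cd4, Cd8a and Lck, summed to 4.34–6.98 and 3.01–4.53 CPM, with 1 of the 2 tested lower. Klrk1, the 1 listed NK cell marker, rose from 9.82–17.5 to 53.4–126 CPM. Plasma cell markers summed to 88.4–103 and 73.1–92.6 CPM with 1 of 4 lower, mast cell and basophil markers to 19.3–37.1 and 34.7–51.9 CPM with 1 higher and 1 lower of 4, erythroid markers to 3.95–22.2 and 1.88–5.20 CPM, and platelet markers to 3.83–5.27 and 1.39–2.48 CPM. Per the study's methods the monocytes were isolated with an enrichment kit, and how many other cells remained was not measured here. In bulk RNA, fewer cells of a type and less RNA per cell cannot be told apart, and the part of other cell types in the results below was not tested.

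Stimulation raised many genes of the interferon, antigen presentation and NF-κB systems, whereas chemokine and chemokine receptor genes rose and fell. It lowered most of the macrophage maturation markers and tested mitochondrial genes and many genes of cholesterol synthesis. Of 11625 genes tested, 1656 (14.2%) were called higher and 2080 (17.9%) lower, together 3736 (32.1%), and the log2 fold change of all genes had a median of 0.02. Changes were large, with 135 genes higher and 84 lower by at least 64-fold. The stimulated libraries differ from the unstimulated ones in the ratio of reads to scaled size, 0.970 to 0.997 against 0.776 to 0.788, so the authors' scaling decides where 0 lies. Scaled to their own totals of reads, all fold changes shift by -0.33, and the split of calls moves from 44.3% higher to 30.4% higher. Fold changes below are relative to the authors' scaling, and lists whose direction turns under another scaling are named with that value. Counts of called list members are to be read beside the shares of all genes, 14.2% higher and 17.9% lower. The lists were chosen with earlier results of these data known, so these counts describe and are not a test.

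**Figure D1:**
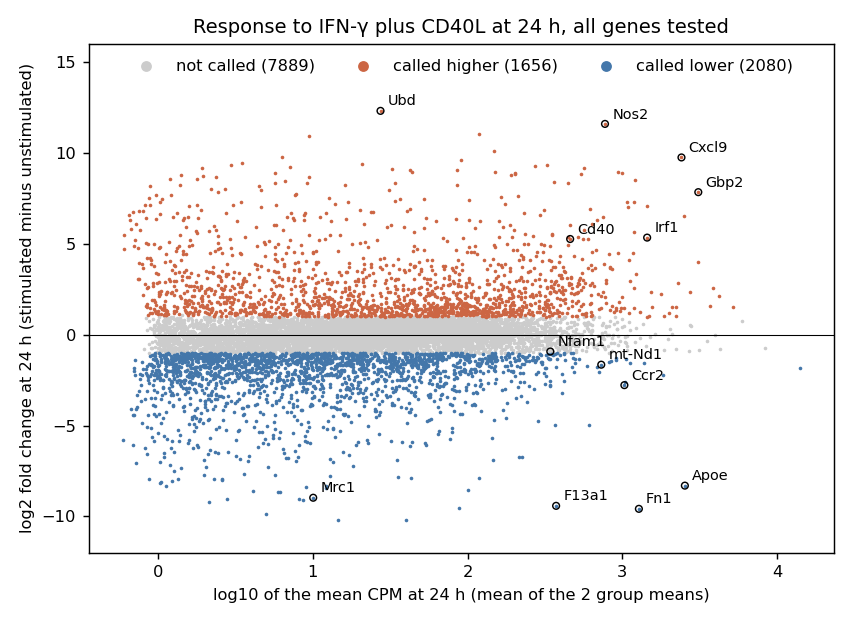
Log2 fold change at 24 h (stimulated minus unstimulated, n = 4 each) against the log10 of the mean CPM for each of the 11625 genes tested, with called genes in colour and some named genes circled. Of the circled genes Ubd (12.32) and Nos2 (11.60) rose most and Fn1 (-9.58) and F13a1 (-9.42) fell most.

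The largest rises belonged to genes at under 10 CPM in every unstimulated library. Nos2, the inducible nitric oxide synthase, was at 0.336, 0.852, 0.36 and 0.345 CPM in unstimulated and 1094, 2623, 1759 and 696 CPM in stimulated libraries. The stimulated libraries differed among themselves, with 55 and 58, both titled NFAM1-/- but with different tags, the lowest, but all lay far above the unstimulated ones, of which 44 was highest, and the log2 fold change was 11.60 ± 0.41 (adjusted p = 1.6e-09). Ubd, which encodes the ubiquitin-like protein FAT10, had 4 reads over the 4 unstimulated libraries, all in 46, and 61.9, 42.5, 56.4 and 58.0 CPM after stimulation. Its log2 fold change of 12.32 ± 0.64 (adjusted p = 3.1e-08), the largest among the genes named by size, rests on those few reads. Serping1, the inhibitor of complement C1, reached 264, 176, 234 and 275 CPM from at most 0.266 CPM, a log2 fold change of 11.03 ± 0.56 (adjusted p = 2.5e-08). Gm15056 had 2 reads in the unstimulated group, both in 46, against 20.8, 23.1, 22.2 and 9.87 CPM in stimulated libraries, with 58 lowest. The ratio of its counts was 3055, with a 95% counting interval of 845 to 25236. Slamf1, a receptor on activated lymphocytes and myeloid cells, had 4 reads in the unstimulated group and 14.8, 7.12, 14.1 and 14.3 CPM after stimulation (log2 fold change 9.79 ± 0.62, adjusted p = 1.5e-07). The other 5 of the 10 largest rises were the secreted nuclease Dnase1l3 (10.13), the CXCR3 ligands Cxcl9 (9.76) and Cxcl11 (9.60), the predicted gene Gm5970 (9.41) and the GTPase gene Tgtp1 (9.34). Gm5970 and Tgtp1 have near-identical relatives that may share reads, so the split between copies is uncertain.

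In the largest falls, stimulated libraries were close to 0. Falls are relative to unstimulated cells at 24 h, whose own level was for some genes, such as Mrc1, higher than at 6 h. Fn1, encoding fibronectin, stood at 3013, 2095, 2559 and 2541 CPM in unstimulated and 2.80, 3.62, 3.87 and 3.01 CPM in stimulated libraries. Its log2 fold change was -9.58 ± 0.12 (adjusted p = 3.5e-12), and the coagulation factor gene F13a1 followed the same course, from 867, 552, 679 and 881 CPM to 0.903, 0.794, 1.29 and 1.38 CPM. The log2 fold change of F13a1 was -9.42 ± 0.20 (adjusted p = 5.3e-11). The C-type lectin gene Cd209a, known from monocyte-derived dendritic cells, went from 50.5–112 CPM to 0.0251–0.21 CPM (-10.22 ± 0.55). The lipid transporter genes Abca6 (-10.21) and Abca9 (-9.52), the fatty acid binding protein gene Fabp4 (-9.04), the scavenger and mannose receptor genes Cd163 (-8.65) and Mrc1 (-8.97), Tmem37 (-9.11) and Hepacam2 (-8.63) complete the 10. In the stimulated group Abca6 had 11 reads, Tmem37 10 and Cd163 8, so the size of these falls is imprecise. In every one of these 20 genes all 4 stimulated libraries lay on one side of all 4 unstimulated ones, which the rule that chose them required.

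**Figure D2:**
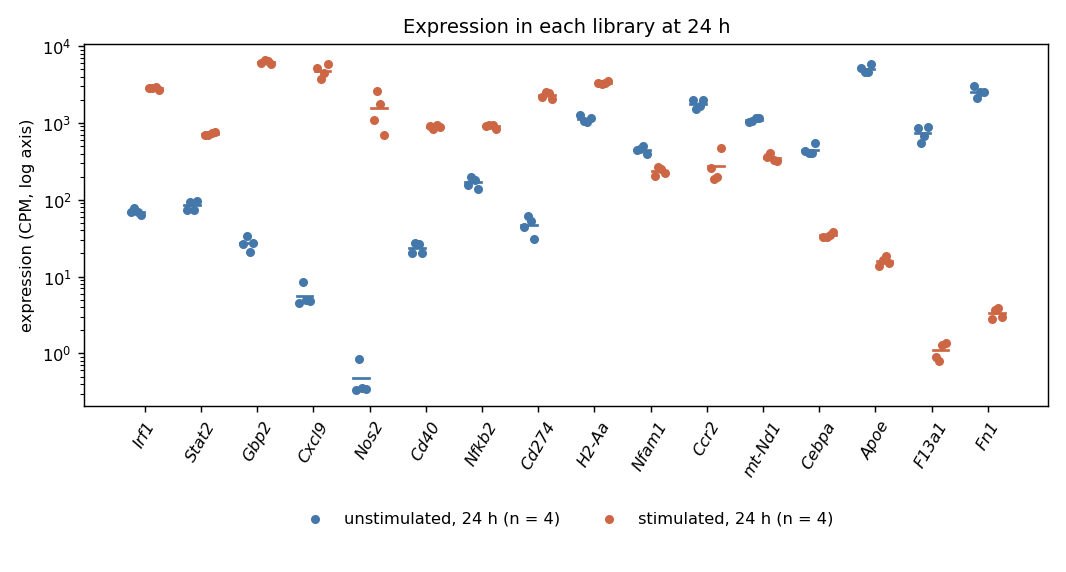
Expression in CPM (log axis) of 16 named genes in each 24 h library, with a point per library and a line at the mean of the 4 libraries of a group. The genes were picked for display, so the lack of overlap between groups in each of them says nothing about other genes. Nos2 varies most within the stimulated group (696–2623 CPM).

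Promoters were searched for the letters that the factors of both pathways bind. The 250 bases before the start were read on both strands for the gamma activated site (GAS, TTCNNNGAA), the core of the interferon-stimulated response element that IRFs bind (ISRE, GAAANNGAAA), and an NF-κB site. The windows are from RefSeq on build GRCm38.p6, whereas the submitters' notes give GRCm39 and mm39 for the reads, so they are shown as sequence only. Irf1 (chr11:53769764-53770013, plus strand), Gbp2 (chr3:142620413-142620662, plus strand), Cxcl10 (chr5:92348890-92349139, minus strand) and Nfkb2 (chr19:46304487-46304736, plus strand) hold matches and are shown because each stands for a group described below, and Cxcl9 (chr5:92328080-92328329, minus strand) and Tap1 (chr17:34187306-34187555, plus strand) are shown as induced genes without one. Capitals mark the motif matches.

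Irf1: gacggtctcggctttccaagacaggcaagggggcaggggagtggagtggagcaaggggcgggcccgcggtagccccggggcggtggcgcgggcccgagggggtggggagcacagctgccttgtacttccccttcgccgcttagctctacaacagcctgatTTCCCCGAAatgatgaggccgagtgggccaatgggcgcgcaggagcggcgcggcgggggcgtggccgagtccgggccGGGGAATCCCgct

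Gbp2: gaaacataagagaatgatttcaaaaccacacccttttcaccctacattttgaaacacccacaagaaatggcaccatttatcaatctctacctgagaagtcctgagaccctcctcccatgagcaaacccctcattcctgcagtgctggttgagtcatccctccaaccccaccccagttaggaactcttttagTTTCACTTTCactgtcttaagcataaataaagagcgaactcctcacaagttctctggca

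Cxcl10: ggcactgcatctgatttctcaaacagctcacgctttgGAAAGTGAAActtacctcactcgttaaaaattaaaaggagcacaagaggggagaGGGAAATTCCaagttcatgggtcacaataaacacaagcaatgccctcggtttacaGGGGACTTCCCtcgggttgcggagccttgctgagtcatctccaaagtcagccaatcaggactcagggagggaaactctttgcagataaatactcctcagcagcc

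Nfkb2: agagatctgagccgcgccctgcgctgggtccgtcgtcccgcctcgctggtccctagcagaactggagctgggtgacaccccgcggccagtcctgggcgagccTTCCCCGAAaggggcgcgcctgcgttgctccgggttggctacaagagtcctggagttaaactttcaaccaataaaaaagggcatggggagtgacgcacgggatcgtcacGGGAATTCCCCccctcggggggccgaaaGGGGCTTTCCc

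Cxcl9: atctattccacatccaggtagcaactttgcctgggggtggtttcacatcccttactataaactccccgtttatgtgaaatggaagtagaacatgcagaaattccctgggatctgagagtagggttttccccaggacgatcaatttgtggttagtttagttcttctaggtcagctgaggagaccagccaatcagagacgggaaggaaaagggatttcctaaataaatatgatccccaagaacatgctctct

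Tap1: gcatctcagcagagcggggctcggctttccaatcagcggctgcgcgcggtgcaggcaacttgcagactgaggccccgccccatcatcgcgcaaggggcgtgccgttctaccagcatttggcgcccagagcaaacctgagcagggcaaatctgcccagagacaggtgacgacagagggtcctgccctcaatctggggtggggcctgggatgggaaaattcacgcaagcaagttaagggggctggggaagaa

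The Irf1 window holds a GAS match, TTCCCCGAA, 90 to 82 bases before the start, and an NF-κB match 13 to 4 bases before it. Gbp2 has an ISRE core match, read here on the other strand as TTTCACTTTC, 59 to 50 bases before the start. Cxcl10 has an ISRE core match, GAAAGTGAAA, 213 to 204 bases before the start and NF-κB matches at 159 to 150, 104 to 95 and 103 to 94, the last pair overlapping with a shift of 1 base. Nfkb2 has the same GAS letters as Irf1 at 148 to 140 and NF-κB matches at 39 to 30, 38 to 29, again an overlapping pair, and 11 to 2. The table holds 1 further promoter of Irf1, with no match, and 2 of Nfkb2, each with 1 NF-κB match and no GAS match, and the first listed is shown. Cxcl9 and Tap1 have no match, which says only that these letters are absent from the window. Ciita and Cd40 were also in the order of genes to show, but no promoter was available for them and they are named only. Over all genes, 7.60% of the promoters of genes called higher held an ISRE core, against 2.18% of those called lower, 2.35% of those not called and 2.98% of all 32851 promoters. NF-κB matches were found in 11.8% of promoters of genes called higher, 8.24% of those called lower, 8.43% of those not called and 7.25% of all. For GAS the shares were 7.73%, 5.39%, 5.73% and 7.02%, a smaller spread, with the share among all promoters close to that of genes called higher. Of 1656 genes called higher 1206 matched a promoter by symbol, and of 2080 called lower 1490 did. A match is a description of letters, and binding was not measured.

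**Figure D3:**
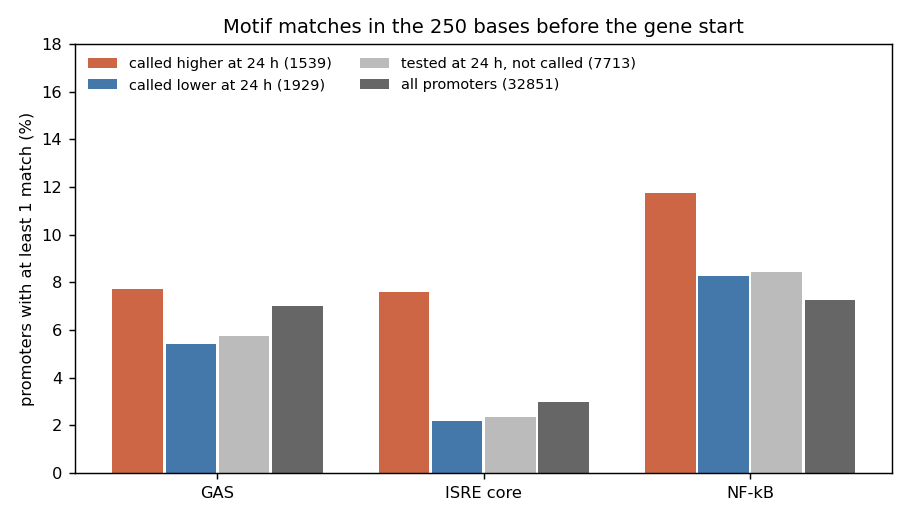
Percent of promoters with at least 1 match to each motif in the 250 bases before the start, for genes called higher, called lower, tested and not called, and all promoters, with the number of promoters in the key. The ISRE core shows the widest gap (7.60% of promoters of genes called higher against 2.18% of those called lower).

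The transcripts of the IFN-γ pathway itself moved both ways, with the receptor chain Ifngr1 lower and Jak2, Stat2 and Stat3 higher. Of 6 genes of the receptor and its JAK-STAT pathway 3 rose and 1 fell, with a median log2 fold change of 0.96. Stat2, a transcription factor of the interferon pathways, stood at 74.5, 93.5, 73.5 and 96.9 CPM in unstimulated and 698, 688, 741 and 751 CPM in stimulated libraries. No library overlapped, and the log2 fold change was 3.10 ± 0.09 (adjusted p = 5.6e-10). The kinase gene Jak2 rose by 2.81 and Stat3 by 1.88. Ifngr1, the ligand-binding receptor chain, fell from 519.7, 476, 496 and 473 CPM to 140.4, 129.7, 127 and 151 CPM, a log2 fold change of -1.84 ± 0.07 (adjusted p = 1.9e-09). The second chain, Ifngr2, was at 242–261 CPM and 195–215 CPM, a value of -0.30 that did not reach 2-fold.

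Inhibitors of this pathway were among the induced genes. Of 9 tested, 7 rose and none fell (median 2.02). Socs1, which blocks JAK kinases, was at 3.06, 4.54, 4.36 and 4.31 CPM and 374, 336, 295 and 258 CPM, with no overlap and a log2 fold change of 6.28 ± 0.14 (adjusted p = 8.1e-11). Usp18, the ISG15 protease that also restrains interferon receptors, rose by 5.004 and Socs3 by 3.68. Socs2 was not called at 0.98, with overlapping libraries (2.76–6.90 and 6.78–9.24 CPM), but passed 2-fold when library 44, 55 or 58 was left out (1.24, 1.02 and 1.05), under quantile normalization (1.22) and with only the libraries without a genotype conflict (1.10). Pias1 was at 0.62.

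Interferon regulatory factors (IRFs) split by member. Of 8 tested, 5 rose and 1 fell (median 1.505), and Irf3 and Irf5 were not called. Irf1 stood at 69.0, 77.1, 68.8 and 63.1 CPM in unstimulated and 2865, 2844, 2925 and 2645 CPM in stimulated libraries. The stimulated libraries lay 40.6-fold above the others in the fit, a log2 fold change of 5.34 ± 0.07 (adjusted p = 3.5e-12). Irf7, the amplifier of type I interferon production, rose by 4.51, Irf8, a factor for monocyte and dendritic cell development, by 2.13 and Irf2 by 1.74. Irf4, linked to alternative activation of macrophages and to dendritic cells, was the member that fell, from 43.7, 23.02, 22.6 and 35.6 CPM to 5.21, 4.24, 4.03 and 4.47 CPM (-2.75 ± 0.20, adjusted p = 5.1e-07).

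The dynamin-like GTPases that attack vacuoles of intracellular pathogens were among the most strongly induced groups. All 11 guanylate-binding protein genes rose, with log2 fold changes from 5.56 for Gbp9 to 9.08 for Gbp10 and a median of 8.34. Gbp2 went from 26.4, 33.4, 20.9 and 27.7 CPM to 5955, 6503, 6335 and 5839 CPM, an increase with no overlap of 7.85 ± 0.12 (adjusted p = 7.4e-12). Gbp10 rose from 0.0691–0.256 CPM to 61.3–103 CPM, and Gbp2b, which may share reads with Gbp2, by 8.22. All 9 immunity-related GTPase genes rose as well, with a median of 6.48. Iigp1, which acts on parasite vacuoles, was at 2.33, 3.15, 1.42 and 2.86 CPM and 1061, 996, 1041 and 1216 CPM (8.84 ± 0.21, adjusted p = 9.1e-11). The regulatory members Irgm1 and Irgm2 rose by 4.69 and 4.997. Irgc1 was the least changed member at 1.03–1.77 CPM after stimulation, with a log2 fold change of 1.31. This value dropped to 0.96 without library 44 and 0.98 under own totals. With only the libraries without a genotype conflict it was 1.04, past 2-fold but not called.

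Antiviral genes better known from type I interferon also rose, all 23 of 23, with a median of 3.49. The range ran from 1.62 for Ifitm3, a membrane protein that blocks virus entry, to 6.29 for Ifi44. Isg15, a ubiquitin-like modifier, stood at 12.5, 22.6, 11.3 and 14.4 CPM in unstimulated and 709.9, 662, 727 and 660.0 CPM in stimulated libraries. Its log2 fold change was 5.55 ± 0.18 (adjusted p = 7.4e-10). Oasl1 (5.49), Rsad2 (4.87), which encodes viperin, and the exonuclease gene Isg20 (4.09) lay between.

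Antigen presentation genes rose in both classes. In class I and its peptide loading machinery 15 of 18 rose and none fell (median 3.01). H2-K1, a classical class I heavy chain, was at 1014, 1286, 1089 and 1077 CPM and 6726, 6754, 6659 and 5996 CPM, with every stimulated library above every unstimulated one although 58 was lowest among them. The log2 fold change was 2.55 ± 0.09 (adjusted p = 1.9e-09). B2m, the light chain, rose by 2.12 and H2-D1 by 1.60. Tap1, a subunit of the peptide transporter, went from 117, 137, 109 and 131 CPM to 2099.7, 2143, 2116 and 1985 CPM (4.09 ± 0.08, adjusted p = 2.2e-11). Nlrc5, the activator of class I genes, rose by 4.14. H2-Q6 had the largest value at 6.31, but class I genes are similar enough to share reads, so its level is uncertain. The 3 members not called were general chaperones of the endoplasmic reticulum, among them Pdia3 at -0.29.

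Proteasome transcripts rose most for the interferon-inducible subunits. All 5 immunoproteasome genes rose (median 3.28). Psmb9 was at 42.4, 53.9, 44.7 and 44.0 CPM and 783, 692, 739 and 705 CPM, a log2 fold change of 3.98 ± 0.08 (adjusted p = 3.3e-11). Psmb8 rose by 3.28, Psmb10 by 3.13 and the activator genes Psme1 and Psme2 by 2.44 and 3.66. The 3 standard subunits were not lower. Psmb6 and Psmb7 were called higher at 1.19 and 1.30 and Psmb5 had a value of 0.81, but neither call held under scaling to own totals, and that of Psmb6 was also lost under quantile normalization.

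In class II presentation 10 of 11 rose and 1 fell (median 1.67), with 7 and 0 under quantile normalization. H2-Aa, a chain of the class II molecule I-A, was at 1276, 1062, 1041 and 1164 CPM and 3292, 3212, 3289 and 3485 CPM. Every stimulated library lay above every unstimulated one, with a log2 fold change of 1.55 ± 0.08 (adjusted p = 3.4e-08). H2-Ab1, the partner chain, rose by 1.54, and the calls of H2-Aa, H2-Ab1 and H2-D1 were lost under quantile normalization. Cd74, the invariant chain, rose by 1.55. Ciita, the master activator of class II genes, went from 76.8, 52.2, 62.1 and 78.5 CPM to 396, 351, 395 and 470.4 CPM (2.59 ± 0.13, adjusted p = 2.7e-08). The pair that forms H2-O, which restrains peptide exchange, moved apart. H2-Oa rose from 4.11–7.31 CPM to 45.6–92.6 CPM (3.62), whereas H2-Ob fell from 7.96–13.05 CPM to 3.93–4.97 CPM (-1.20), a fall not called under quantile normalization.

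Transcripts of the receptor CD40 and of most of its adaptors rose, under both stimuli together. Of 11 tested 9 rose and 1 fell (median 1.76). Cd40 itself was at 20.2, 27.0, 26.5 and 20.04 CPM in unstimulated and 919, 841, 948 and 875 CPM in stimulated libraries. The receptor transcript was thus high in all 4 stimulated libraries and low in all 4 others, with a log2 fold change of 5.27 ± 0.10 (adjusted p = 3.4e-11). Traf1, an adaptor that NF-κB induces, went from 55.7, 87.2, 70.8 and 33.0 CPM to 776, 781, 783 and 708 CPM (3.71 ± 0.24, adjusted p = 1.5e-07). Traf2 rose by 2.25, Tnfaip3, which encodes the deubiquitinase A20, by 2.34 and the ubiquitin ligase gene Birc3 by 1.54. Map3k14, the kinase NIK of the non-canonical pathway, was the member that fell (88.0, 98.6, 83.9 and 76.5 CPM to 39.2, 40.1, 40.5 and 45.5 CPM, -1.07 ± 0.08, adjusted p = 6.8e-07).

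Among NF-κB subunits and inhibitors 8 of 15 rose and none fell (median 1.55). Nfkb2, the precursor of p52, stood at 154, 198, 183 and 136 CPM and 921, 945, 952 and 826 CPM. No library overlapped, and the log2 fold change was 2.45 ± 0.11 (adjusted p = 9.3e-09). Its partner Relb rose by 1.98. Nfkb1, the precursor of p50, was at 332–348 CPM and 317–343 CPM, a value of -0.06. The inhibitor genes Nfkbia (2.38) and Nfkbie (2.95) rose, and the kinase gene Ikbkb was at -0.25.

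Molecules that antigen-presenting cells show to T cells followed, with 8 of 11 costimulatory and checkpoint ligands higher and 1 lower (median 1.66). Cd274, encoding PD-L1, was at 43.7, 61.5, 53.4 and 30.8 CPM and 2205, 2554, 2484 and 2074 CPM, the largest rise of the list at 5.66 ± 0.18 (adjusted p = 7.6e-10). Cd86 rose by 2.11, Cd80 by 1.60, Pdcd1lg2, encoding PD-L2, by 2.94, Icam1 by 3.38 and Tnfsf4, the OX40 ligand, by 4.42 from a low level of 0.083–0.253 CPM. Vsir, which encodes the inhibitory ligand VISTA, fell from 566, 512, 519 and 513 CPM to 113, 98.7, 95.7 and 131 CPM (-2.28 ± 0.09, adjusted p = 5.6e-09).

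Cytokine genes of several families rose. Of 4 IL-12 family genes tested 3 rose (median 4.78). Il12b, the p40 subunit, was at 1.3201, 1.58, 0.996 and 0.864 CPM in unstimulated and 41.4, 48.8, 43.3 and 23.3 CPM in stimulated libraries. The stimulated libraries varied but all lay above the others, with a log2 fold change of 5.02 ± 0.25 (adjusted p = 2.4e-08). Il12a, the p35 subunit, rose by 4.53 and Il27 by 5.85, whereas Ebi3 was at 0.58 and Il23a was not tested. Among 17 other cytokine genes 9 rose and 3 fell (median 2.16). Tnf went from 78.7, 118, 128 and 67.1 CPM to 397, 357, 452 and 496 CPM (2.16 ± 0.19, adjusted p = 2.4e-06). Lta, the lymphotoxin gene next to it, rose from 0.0695–0.365 CPM to 42.8–88.5 CPM (7.97). Il6 rose by 6.11, Il15 by 3.09, Il1a by 2.52, the death ligand gene Tnfsf10, encoding TRAIL, by 6.29, and Il18bp, a soluble inhibitor of IL-18, by 6.89. Il16, a chemoattractant cytokine, had the largest fall of the list, from 19.7–22.2 CPM to 1.02–3.50 CPM (-3.35).

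Chemokine genes of both the CXC and the CC family rose and fell. Of 5 CXC genes 4 rose and 1 fell (median 7.29). Cxcl9 was at 4.47, 8.47, 4.98 and 4.78 CPM in unstimulated and 5205, 3703, 4514 and 5818 CPM in stimulated libraries. Cxcl10 was at 13.7, 16.6, 13.3 and 17.2 CPM and 2583, 2160.4, 2334 and 2388 CPM. Both were at low CPM without stimulus and high in all 4 stimulated libraries, with log2 fold changes of 9.76 ± 0.20 (adjusted p = 4.2e-11) and 7.29 ± 0.09 (adjusted p = 3.5e-12). Cxcl2, a neutrophil attractant, fell from 11.98–21.5 CPM to 2.49–6.33 CPM (-1.85). Of 9 CC genes 4 rose and 3 fell, or 4 under own totals. Their median of 0.42 ran from 0.18 to 0.63 when 1 library was left out and was 0.09 under own totals. Ccl5 rose from 16.3, 34.6, 16.99 and 16.2 CPM to 2757, 3782, 3350.1 and 1604 CPM (7.11 ± 0.30, adjusted p = 5.8e-09), with 44 the highest unstimulated library. Ccl12 rose by 7.52, Ccl22 by 3.05 and Ccl2, the ligand of CCR2, by 1.93. Ccl9 fell from 435, 461, 449 and 439 CPM to 3.84, 5.88, 4.39 and 3.01 CPM (-6.74 ± 0.16, adjusted p = 1.0e-10), as did Ccl6 (-5.35) and Ccl3 (-1.19).

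All 9 chemokine receptor genes tested were called, 3 higher and 6 lower (median -1.66). Ccr2, the receptor that brings classical monocytes out of the bone marrow, was at 1969.7, 1507, 1679 and 1971 CPM and 259, 187, 198 and 469 CPM. Library 58 kept the highest level among the stimulated, still below every unstimulated one, and the log2 fold change was -2.77 ± 0.25 (adjusted p = 2.3e-06). Cx3cr1, the fractalkine receptor of patrolling monocytes, fell from 610.4–789 CPM to 18.96–28.9 CPM (-4.98), and Cxcr3 (-5.78) and Ccr1 (-1.33) fell too. The lymph node homing receptor Ccr7 rose from 22.2–54.5 CPM to 83.7–211 CPM (2.25). Cxcr5 rose by 3.54 but stayed low at 1.31–2.86 CPM.

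Enzymes with antimicrobial or signalling products were mostly higher, 9 of 11 with Nos2 among them, and 1 was lower (median 4.56). Acod1, which makes itaconate, stood at 40.7, 90.6, 81.3 and 25.04 CPM and 4823, 5469.7, 5119 and 4223 CPM (6.54 ± 0.34, adjusted p = 3.4e-08). Ptgs2, the inducible cyclooxygenase, went from 1.76, 3.41, 3.65 and 2.49 CPM to 739, 966, 991 and 846 CPM (8.34 ± 0.20, adjusted p = 1.2e-10), whereas the constitutive form Ptgs1 fell from 6.63–7.62 CPM to 0.225–0.339 CPM (-4.72). The cyclooxygenase genes thus moved in opposite directions. Ch25h, which makes 25-hydroxycholesterol, rose by 6.76 and Ido1, which degrades tryptophan, by 4.58, to only 3.61–4.87 CPM. Ass1, an enzyme that helps to remake arginine from citrulline, rose by 3.03. None of the 5 phagocyte NADPH oxidase genes was called, and their median of 0.55 turns to -0.09 under quantile normalization. Cybb, the catalytic subunit, was at 2058–2537 CPM and 3187–3339.7 CPM (0.55), Cyba at 0.96, just past 2-fold without library 44 or 58 (1.02 and 1.01) or with only the libraries without a genotype conflict (1.04), and Rac2 at -0.26 with overlapping libraries.

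Of 13 genes of inflammasomes, pyroptosis and necroptosis 7 rose and 1 fell (median 1.31). Zbp1, a sensor of Z-form nucleic acids, was at 29.6, 42.0, 25.5 and 28.2 CPM and 1192, 1159, 1190.0 and 1121 CPM (5.24 ± 0.13, adjusted p = 1.2e-10). The inflammatory caspase genes Casp4 (4.14) and Casp1 (2.39) and Mlkl, the executor of necroptosis (3.25), rose. Aim2 rose by 1.31, a call lost under own totals. Nlrp3 was at 304–354 CPM and 210.0–266 CPM (-0.50), and Naip5, a flagellin sensor, fell (-1.15). Among 6 survival genes of the BCL2 family 3 rose (median 1.29), the 3 A1 copies, which may share reads, with Bcl2a1a at 3.80. Bcl2l1 was at 0.85 and Bcl2 at 0.05. Of 8 death genes of the family 1 rose and 1 fell (median 0.48). Bak1 rose by 1.94, Bmf fell from 145–172 CPM to 15.2–26.6 CPM (-3.10), and Bax was at 0.93, or 1.04 and called without library 58 or with only the libraries without a genotype conflict.

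Several soluble complement components rose while a receptor fell. Of 12 tested 6 rose and 2 fell (median 2.03). C3, the central component, was at 337, 368, 446 and 312 CPM and 6164, 5112, 5808 and 6050.1 CPM (3.99 ± 0.11, adjusted p = 3.1e-10). C4b rose from 0.76–1.02 CPM to 254–532 CPM (8.77), Cfb, encoding factor B, by 7.47 and C2 by 6.25. The receptor gene C3ar1 fell from 235–398 CPM to 23.4–75.6 CPM (-3.06). C1qa and C1qb, which overlapped between the groups, were at 0.01 and 0.32.

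Genes of monocyte and macrophage identity moved both ways. Of 16 monocyte surface genes 6 rose, or 4 without library 46 or under own totals, and 8 fell (median -0.73). Those that rose included Ly6c2, the mark of classical monocytes (446, 530.2, 498 and 520.4 CPM to 2754, 2125, 2445 and 2965 CPM, 2.36 ± 0.11, adjusted p = 9.8e-09), whose reads may be shared with Ly6c1 (3.07). Plac8 rose too (3.57). Csf1r fell from 2902, 3274, 3286 and 2606 CPM to 703, 673, 637 and 605 CPM (-2.20 ± 0.09, adjusted p = 5.1e-09), and the scavenger receptor gene Cd36 (-2.78) and Lyz2 (-1.84) fell as well. Cd14, the lipopolysaccharide coreceptor, fell in all 4 stimulated libraries, 60.9, 160.0, 115 and 23.5 CPM against 241, 395, 344 and 193 CPM, with a wide spread (-1.98 ± 0.50, adjusted p = 0.0043). In each group the lower pair, 43 and 46 or 55 and 58, is the pair titled NFAM1-/-. The same holds for other genes, among them Acod1, Nos2, Traf1, Nfkb2, Cd274, Ptgs2 and Ccl5, whereas for some, such as Ccr2 and H2-Aa, that pair is the higher one. A genotype difference was not tested.

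Markers of maturing macrophages were mostly lower, 12 of 17 against 1 higher (median -1.78). Mrc1, the mannose receptor, was at 25.6, 14.99, 16.97 and 22.7 CPM and 0.0602, 0, 0.03 and 0.126 CPM (-8.97 ± 0.74, adjusted p = 1.2e-06). Apoe, one of the most abundant transcripts without stimulus, went from 5219.7, 4559, 4536 and 5882 CPM to 13.8, 16.2, 18.8 and 15.05 CPM. No stimulated library exceeded 18.8 CPM, and the log2 fold change was -8.30 ± 0.11 (adjusted p = 3.5e-12). Spp1, encoding osteopontin (-7.81), Trem2 (-5.66) and Adgre1, encoding F4/80 (-1.58), also fell. Mertk, an efferocytosis receptor, overlapped between the groups at 0.17. Siglec1 was the member that rose (1.12 ± 0.27, adjusted p = 0.0032), with overlapping libraries (28.5, 67.8, 31.9 and 28.6 CPM against 95.1, 58.0, 73.5 and 98.2 CPM) of which 44 was high among the unstimulated, and its call was lost under own totals and quantile normalization. The neutrophil, eosinophil and B cell markers that fell are given above beside the monocyte markers, with the enrichment step. The part of these cell types in these falls was not tested.

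Lineage transcription factors also moved in both directions, 5 higher and 6 lower of 17 (median -0.73). Cebpa, which drives the myeloid lineage, fell from 430.1, 400.2, 410.2 and 544 CPM to 33.1, 32.8, 34.5 and 37.6 CPM (-3.68 ± 0.09, adjusted p = 1.6e-10), as did Pparg (-4.42) and Nr4a1, which nonclassical monocytes need (-3.88). Batf2, an interferon-induced partner of IRF1, rose from 1.99, 3.19, 1.95 and 1.66 CPM to 446, 408, 428 and 394 CPM (7.61 ± 0.17, adjusted p = 6.1e-11). Klf4 rose by 3.11, and Spi1, encoding PU.1, was at 419–469 CPM and 674–689 CPM (0.63). Among 14 immediate early genes 1 rose and 6 fell (median -0.65). Fos was at 192, 251, 214 and 182 CPM and 20.5, 40.8, 28.3 and 31.4 CPM (-2.82 ± 0.18, adjusted p = 1.6e-07), Fosb (-4.24), Myc (-3.68) and Egr1 (-1.79) fell too, and Junb rose by 1.21, a call lost under own totals and quantile normalization.

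Receptors for antibody and microbial products included large changes in single members. Of 6 Fc gamma receptor genes 1 rose and 1 fell, with a median of 0.13 that turns to -0.21 under own totals and -0.41 under quantile normalization. Fcgr4, an activating receptor, rose from 9.84, 15.7, 8.99 and 8.77 CPM to 138, 137, 103 and 143 CPM (3.62 ± 0.18, adjusted p = 2.2e-08), and the neonatal receptor gene Fcgrt fell from 56.9–71.0 CPM to 8.92–15.4 CPM (-2.50). Fcgr1, the high-affinity receptor known as an IFN-γ target, was at 73.9, 107, 62.7 and 95.7 CPM and 128, 137, 121 and 151 CPM. Its groups did not overlap, but the value of 0.69 was under 2-fold, and the inhibitory Fcgr2b was at -0.25. Fcgr1 rose more at 6 h, its response at 24 h minus that at 6 h being -3.78 (limma adjusted p = 6.2e-11). In this list 3 of 6 genes had a negative difference between times and 1 a positive one. Of 15 Toll-like receptor and adaptor genes 3 rose and 4 fell, with a median of 0.03 that turns to -0.31 under own totals, -0.001 under median centring, -0.07 without library 43 and -0.10 without 57. Tlr8 fell from 113, 96.1, 107 and 104 CPM to 2.03, 2.08, 1.44 and 1.33 CPM (-5.95 ± 0.15, adjusted p = 1.3e-10) and so did Tlr7, like it a sensor of single-stranded RNA (-1.30). Tlr3, for double-stranded RNA, rose by 3.10, and Tlr2 and Tlr1 were at -0.59 and 0.24, Tlr2 called lower under quantile normalization (-1.13).

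Of 20 genes of cholesterol synthesis and uptake 11 fell and 1 rose (median -1.04). Sqle, encoding squalene epoxidase, was at 29.4, 38.4, 35.8 and 39.6 CPM and 3.69, 3.82, 4.66 and 6.204 CPM (-2.98 ± 0.17, adjusted p = 5.3e-08). Cyp51 (-2.47) and Fdps (-2.39) fell too. Hmgcs1 was at -0.64 and Mvk, with overlapping libraries, at -0.25, and Mvd rose by 1.30, a call lost under own totals. In cholesterol efflux 2 of 6 rose and 2 fell, with a median of 0.31 that turns to -0.03 under own totals. Abca1 fell from 63.98–94.8 CPM to 20.3–29.4 CPM (-1.55) beside Apoe, whereas Abcg1 (1.44) and Nr1h3, encoding the sterol sensor LXR alpha (1.47), rose.

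Transcripts of the mitochondrial genome fell while nuclear genes of the respiratory chain mostly were not called. Of 9 mitochondrially encoded genes tested 7 fell and none rose (median -1.49). The complex I subunit gene mt-Nd1 was at 1021, 1071, 1166 and 1167 CPM in unstimulated and 359, 405, 332 and 319.8 CPM in stimulated libraries, a log2 fold change of -1.65 ± 0.08 (adjusted p = 2.4e-08). Also lower were mt-Nd2 (-1.75), mt-Nd4 (-1.58), mt-Cytb (-1.54) and the low mt-Co2 (-1.37, not called under quantile normalization), and mt-Co3 was at -0.72, or -1.05 and called under own totals. Among 32 nuclear genes of the chain 3 rose and 1 fell (median 0.43). Cycs, encoding cytochrome c, rose by 1.62 and Ndufa4 fell (-1.06), a value of -0.98 and not called without library 57. Ndufa1 and Ndufa2 were at -0.09 and -0.04.

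In glycolysis and the hypoxia response 6 of 24 genes rose, or 9 without library 58, and 3 fell (median 0.47). Hk3, a myeloid hexokinase, was at 93.7, 92.3, 79.8 and 87.3 CPM and 1097, 1117, 1133 and 1079 CPM (3.65 ± 0.06, adjusted p = 1.1e-11). The glucose transporter genes moved apart, Slc2a1 higher by 1.51 and Slc2a3 lower, from 16.6–20.3 CPM to 1.53–3.36 CPM (-2.93). Pfkfb3 rose by 1.74 and Hif1a by 1.46, the latter not called under quantile normalization, while Vegfa fell (-1.28).

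Ribosomal protein genes were lower as a group in values, though few passed 2-fold. Of 75 tested 18 fell and none rose (median -0.77), and the number that fell was 49 under own totals, 57 under quantile normalization and 21 under median centring. Rpl10a had the largest fall, from 285, 285, 274 and 303 CPM to 107, 90.5, 81.6 and 90.1 CPM (-1.64 ± 0.08, adjusted p = 1.5e-08). Rpl10 was at -0.89, called under own totals (-1.22) and quantile normalization (-1.50), and Rps4l, the highest, at 0.67 with overlapping libraries. In the cell cycle list 6 of 32 rose and 5 fell (median -0.34), beside 14.2% and 17.9% of all genes. The counts were 4 and 10 under own totals, and 5 and 1 of the 21 genes with a mean of at least 5 CPM. Ccnd2, a G1 cyclin, rose from 1.13, 1.13, 1.11 and 1.38 CPM to 102, 77.7, 112 and 132 CPM (6.45 ± 0.15, adjusted p = 9.8e-11), Ccne1 by 4.50 and the inhibitor gene Cdkn1a, encoding p21, by 3.87. Some mitotic cyclin genes, low before stimulation, were called lower, Ccnb2 from 4.50–7.03 CPM to 0.659–1.66 CPM (-2.38) and Ccna2 to a lesser degree (-1.75). Ccnb1 fell (-1.05) with overlapping libraries and was not called under quantile normalization (-0.65) or without library 43, 56 or 57 (-0.93, -0.9992 and -0.82). With only the libraries without a genotype conflict its log2 fold change was about as large (-1.01) but was not called.

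Stress and degradation genes moved in single members. In the endoplasmic reticulum folding list 2 of 17 rose and 1 fell (median -0.20). Trib3 (3.54, 3.79, 4.25 and 4.44 CPM to 100.5, 107, 109 and 86.7 CPM, 4.65 ± 0.10, adjusted p = 5.6e-11) and Ddit3, encoding CHOP (2.27), both targets of the ATF4 branch, rose. The chaperone genes Hspa5 and Hsp90b1 were at 0.01 and -0.42, and Pdia4 fell (-1.24). Of 13 NRF2 antioxidant genes 4 rose and 1 fell, with a median of 0.27 that turns to -0.07 under own totals and -0.17 under quantile normalization. Txn1, encoding thioredoxin, rose by 1.85 and Keap1 by 1.18, the latter not called under own totals. Nfe2l2 was at 0.69. Hmox1, which degrades haem, overlapped between the groups (611, 500.4, 489 and 896 CPM against 268, 544, 375 and 144 CPM). Its fall of -1.02 was not called without library 46, 55 or 58 (-0.83, -0.97 and -0.67) or with only the libraries without a genotype conflict (-0.79).

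Of 27 lysosomal genes 5 rose and 5 fell, beside 14.2% higher and 17.9% lower of all genes tested. Their median of 0.06 turns to -0.27 under own totals and -0.39 under quantile normalization. Ctsc, which activates serine proteases, rose from 559–719 CPM to 2659.5–3551 CPM (2.22) and the proton pump gene Atp6v0a1 fell from 139.9–154 CPM to 38.2–43.3 CPM (-1.87), with Ctsa and Ctsb at -0.67 and -0.80, both called lower under own totals and under quantile normalization. In iron handling none of 11 rose and 4 fell (median -0.64), but without library 58 1 rose and 2 fell, and with only the libraries without a genotype conflict 2 fell. Steap3, a ferrireductase, was at 16.999, 17.5, 15.9 and 13.97 CPM and 0.843, 0.836, 0.809 and 1.23 CPM (-4.12 ± 0.16, adjusted p = 4.0e-09), and the iron exporter Slc40a1 fell (-2.46). Tfrc, the transferrin receptor, was at -0.90, but called without library 56 (-1.02) and under own totals (-1.23). Slc11a1 was at -0.61, or -1.11 and called under quantile normalization, and the ferritin gene Fth1 at 0.76 with overlapping libraries, or 1.03 and called without library 58.

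**Figure D4:**
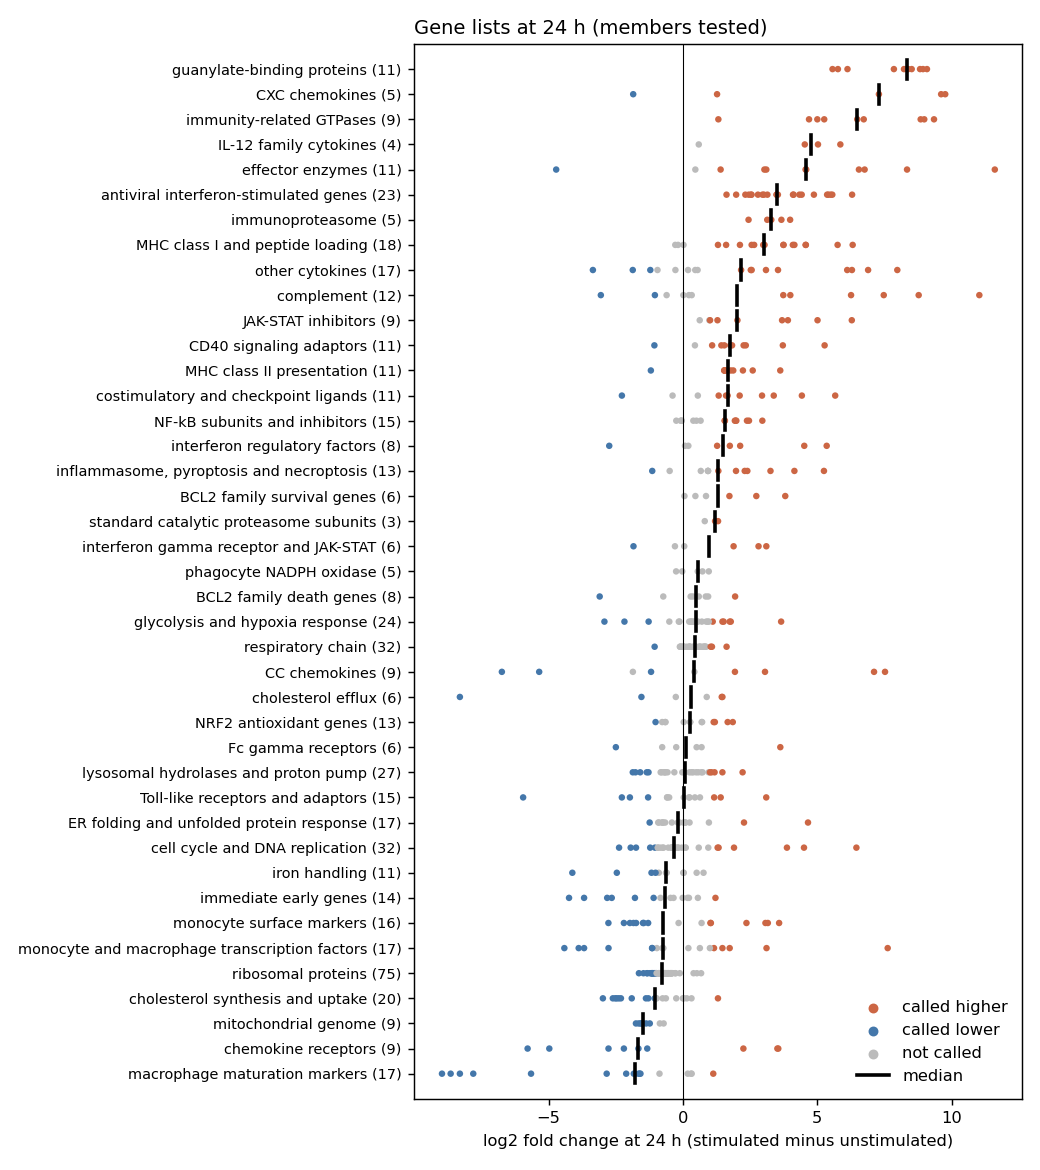
Log2 fold change at 24 h of each tested member of the 41 gene lists, with a point per gene coloured by its call and a bar at each list's median, ordered by median and with the number tested in brackets. Medians run from 8.34 for guanylate-binding proteins to -1.78 for macrophage maturation markers, beside 0.02 for all genes tested, and those of the NRF2, cholesterol efflux, lysosome, Fc gamma receptor and Toll-like receptor lists change sign under scaling to own totals.

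Set beside the response at 6 h, the response at 24 h was different in size for many genes. At 6 h, 2327 of 12306 genes (18.9%) were called higher and 2503 (20.3%) lower, with a median of all genes of -0.13, and the shift under own totals is larger there (-0.73). The difference of the responses, 24 h minus 6 h, was tested in all 16 libraries and was called for 3885 genes (31.6%), positive for 1655 (13.4%) and negative for 2230 (18.1%), with a median of 0.05. Which sign prevails depends on the scaling, since with own totals 3173 were positive and 1486 negative. Classes by call at both times cover these 12306 genes, not only the 11625 tested at 24 h alone, so their 24 h calls differ in number. Of 1309 genes called higher at both times 471 had a smaller response at 24 h and 111 a larger one. Among 1224 called lower at both times the fall was deeper at 24 h for 261 and shallower for 108. Opposite calls were rare, 26 genes higher at 24 h and lower at 6 h and 111 the reverse.

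Antiviral genes and both GTPase families mostly had smaller fold changes at 24 h than at 6 h. Of 23 antiviral genes 21 had a negative difference and none a positive one, with medians of 3.49 at 24 h and 6.37 at 6 h. Rsad2 rose by 8.54 at 6 h, a difference of -3.67 ± 0.28 (adjusted p = 6.9e-09). A negative difference was also called for 9 of the 11 guanylate-binding protein genes and 8 of the 9 immunity-related GTPase genes, with 6 h medians of 9.85 and 8.28, though under quantile normalization for 6 and 4. Other interferon lists were mixed, with a negative difference for 4 of 8 IRF genes (2 under own totals or quantile normalization), 1 of 6 of the receptor and JAK-STAT list and 1 of 5 immunoproteasome genes (none under either). In class I presentation 5 of 18 had a negative and 3 a positive difference, or 1 and 4 under own totals, and the median was 3.01 at 24 h and 2.22 at 6 h. Gbp2 was at 14.5–25.9 CPM in unstimulated and 22790–25443 CPM in stimulated libraries at 6 h, and its difference was -2.35 ± 0.21 (adjusted p = 3.9e-08). Socs1 (-3.15), Ciita (-1.59) and Irf1 (-1.15) had a negative difference, that of Irf1 not called under own totals (-0.75) or quantile normalization (-0.81). So did Il12b (-3.06 ± 0.81, adjusted p = 0.0032) and 7 of the 10 CC chemokine genes in the fit of all 16 libraries, against 9 tested at 24 h alone. Among the 7 were Ccl12 (-5.74) and Ccl2 (-4.42), which rose less at 24 h, and Ccl9 (-4.42), which fell further. Ccl3 was called higher at 6 h (1.39) and lower at 24 h (-1.19), a difference of -2.58 ± 0.29 (adjusted p = 6.9e-07).

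Some genes were further from the unstimulated level at 24 h than at 6 h. Ubd rose by 8.23 at 6 h, a difference of 4.08 ± 1.02 (adjusted p = 0.0021). Of 15 NF-κB subunits and inhibitors 4 had a positive difference, or 7 under own totals, 5 under quantile normalization and 2 under median centring. Nfkb2 was at 0.91 at 6 h and differed by 1.54 ± 0.14 (adjusted p = 5.5e-08) and Relb by 1.47, whereas Nfkb1 (-1.35) and Rel (-1.01) had a negative difference, neither called under own totals. Over all genes, 13.4% had a positive and 18.1% a negative difference. Of 11 CD40 adaptor genes 2 had a positive difference, Traf1 among them (1.60), and 1 a negative one, with Birc3 (-0.19) and Map3k14 (-0.06) not called. Under own totals 5 were positive and none negative, and under quantile normalization 5 and 1. Acod1 (1.48), Il6 (1.71), Lta (1.98), C3 (2.01) and C2 (2.22) also had a positive difference, within lists that held more negative ones, 2 positive and 4 negative effector enzymes (4 and 3 under own totals), 3 and 7 other cytokines and 2 and 5 complement genes. H2-Q6 had one of 4.99, with the doubt about shared reads given above. Ido1 was among the effector enzymes with a negative difference (-4.73). Phlda3, a target of p53, was at 0.839–1.604 CPM and 0.146–0.582 CPM at 6 h, a fall, and rose at 24 h from 0.718, 1.27, 0.913 and 1.20 CPM to 19.4, 14.2, 19.2 and 15.2 CPM. The difference was 5.86 ± 0.48 (adjusted p = 2.1e-08).

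Macrophage markers had a negative difference for 13 of 17 and a positive one for 1 (medians -1.78 at 24 h and -0.44 at 6 h). For 11 of the 13 this was a fall at 24 h, whereas Mertk and Siglec1 had higher values at 6 h (4.13 and 2.83) than at 24 h (0.17 and 1.12). Mrc1 was at 1.13–1.86 CPM and 0.615–2.08 CPM at 6 h, not called (-0.26), and its difference of -8.71 ± 0.89 (adjusted p = 2.4e-07) was the most negative of the genes named by difference. Its unstimulated level was itself higher at 24 h (14.99–25.6 CPM). Itga6, an integrin chain, was at 5.23–10.0 CPM and 3.27–5.28 CPM at 6 h, whereas at 24 h it fell from 79.1, 97.8, 63.9 and 101 CPM to 0.361, 0.418, 0.27 and 0.352 CPM. Its difference was -7.16 ± 0.31 (adjusted p = 1.8e-11). Zfyve28 differed by -6.83. The Notch ligand gene Dll1 and the ankyrin gene Ank2 were instead high in stimulated cells at 6 h alone, Dll1 at 13.04–17.2 CPM there and at most 0.36 CPM in every 24 h library (difference -6.91), and Ank2 at 21.2–29.5 CPM there and 1.04–1.61 CPM at 24 h (difference -6.82). Mitochondrial transcripts were not called at 6 h in any of 10 genes (median 0.11), and 8 of them, or 6 under own totals and 5 under quantile normalization, had a negative difference, mt-Nd1 by -1.73 ± 0.11 (adjusted p = 7.7e-10). Ribosomal protein genes had medians of 0.05 at 6 h and -0.77 at 24 h, and 19 of 75 had a negative difference, or 1 under own totals, 2 under quantile normalization and 32 under median centring.

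The 4 most positive differences came from genes best known from stomach and pancreas, which were at or near 0 reads at 24 h. Gkn1, Gkn2, Clps and Pgc, which encode gastrokines, pancreatic colipase and progastricsin, were present in unstimulated 6 h libraries, Gkn1 at 17.8–56.3 CPM, Gkn2 at 13.2–41.3 CPM, Clps at 8.01–21.2 CPM and Pgc at 31.0–87.8 CPM. None of the 4 had a read in the stimulated 6 h libraries. The 24 h libraries had no read of Gkn1, Gkn2 or Clps, and 8 reads of Pgc in the unstimulated and 2 in the stimulated group. Their fitted differences (Gkn1 11.94, Pgc 11.72, Gkn2 11.48 and Clps 10.65) depend on how values at 0 reads were set, rest mainly on the 6 h libraries and describe nothing at 24 h.

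**Figure D5:**
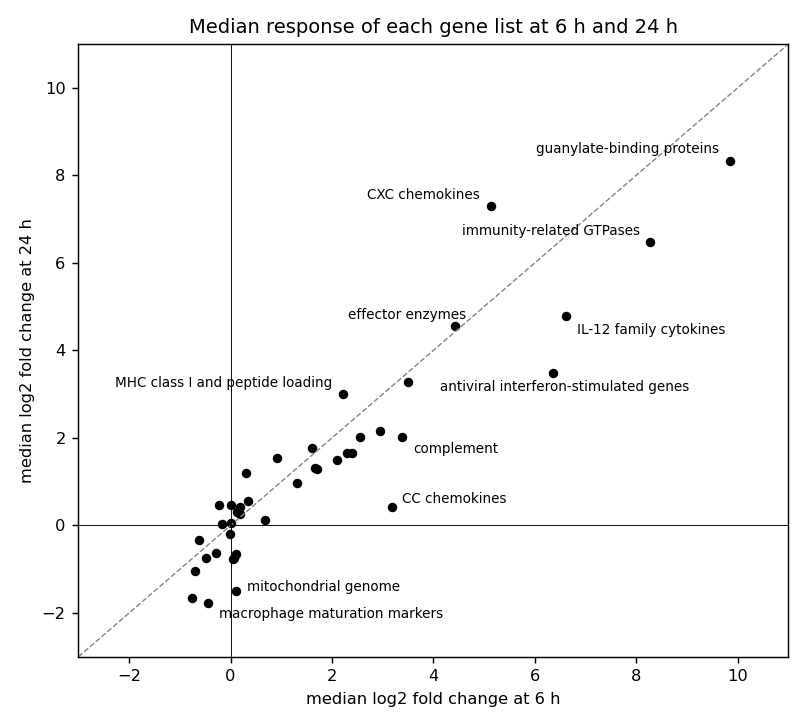
Median log2 fold change of each of the 41 gene lists at 24 h against that at 6 h, a point per list over its members tested at each time, with the line of equal values dashed. Antiviral genes (6.37 at 6 h, 3.49 at 24 h) and IL-12 family cytokines (6.62 and 4.78) lie under the line and mitochondrial genes (0.11 and -1.49) under 0.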

How the data were processed

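Per the study's methods and the submitters' processing notes, reads were checked with FastQC, aligned with STAR to GRCm39/mm39 and counted per gene with Rsubread, and the authors normalized with edgeR and tested with limma-voom (versions not given in the sources used here). The deposited values are log2 CPM on the authors' scaled library sizes. Whole reads were recovered from them for 13085 genes, with a largest gap to a whole number of 0.00535, and used for depths, floors of 3 reads and alternatives. Because the deposited unit is log2 CPM, no count model was fitted. The table holds 17 symbols turned into dates and 1 symbol listed more than once, none of which is named.

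The 8 libraries at 24 h were compared as 4 against 4, with genotypes pooled, and a gene was tested when 4 or more of the 8 reached 1 CPM. limma fitted each gene with a prior variance that follows mean expression, and p-values were adjusted by Benjamini-Hochberg over all genes tested. A called gene changed at least 2-fold with an adjusted p under 0.05. The difference between times was tested in 1 limma model of all 16 libraries in 4 groups. All tests are two-sided. Within groups the libraries correlated at 0.975 to 0.985 across genes and between groups at 0.814 to 0.845, and no pair was close enough to be a library sequenced again (lowest chi-square per degree of freedom 24.0).

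Named genes are Nfam1, the 10 largest rises and falls among called genes with a mean of at least 10 CPM in the higher group and no overlap, the 5 largest differences between times in each direction, the first 2 tested and the most and least changed members of each of 41 lists, and further list members given beside their list's count. Members and lists were chosen with earlier results of these data known, and some members were later taken out of the lists and are not reported here. Counting intervals and floors cover counting error only. The method was tested on simulated data, whose outcome is not given here. Alternatives covered the filter, scaling (own totals, median centring, quantile), prior variance, voom weights, genotype terms, the fold minimum, all 16 libraries in 1 fit, libraries without a genotype conflict and leaving out each library. R 4.3.3, limma 3.58.1, statmod 1.5.0, Python 3.11.15, numpy 2.4.6, pandas 2.3.3 and matplotlib 3.10.9 were used.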

Additional observations from a re-analysis of the deposited data

Results flagged for a closer look

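In groups of 4 libraries, the gap between the highest or lowest library and its nearest neighbour was divided by the range of the group. This was done on the log2 values, in which 0 reads stand at slightly different levels by library size, and ratios above Dixon's 95% critical value are listed with the CPM of that library. Of 504 groups tested, 35 passed, where chance alone passes about 1 in 20, so any single value may be chance. Library 43 was highest of the unstimulated group for Vsir (0.854, at 566 CPM with 512–519 in the others) and the summed mast cell and basophil markers (0.851, at 37.1 CPM with 19.3–21.2 in the others). Library 44 was highest of the unstimulated group for Ccl5 (0.937, at 34.6 CPM with 16.2–16.99 in the others), Cxcl9 (0.831, at 8.47 CPM with 4.47–4.98 in the others) and H2-D1 (0.881, at 1972 CPM with 1749–1774 in the others). It was also highest for Mlkl (0.948, at 15.5 CPM with 13.9 in the others), Ndufa2 (0.866, at 52.2 CPM with 41.8–43.1 in the others) and Nos2 (0.923, at 0.852 CPM with 0.336–0.36 in the others). It was also highest for Pparg (0.951, at 31.7 CPM with 29.5–29.6 in the others) and Siglec1 (0.87, at 67.8 CPM with 28.5–31.9 in the others). Library 46 was highest of the unstimulated group for Ccnd2 (0.891, at 1.38 CPM with 1.11–1.13 in the others), Gm15056 (0.889, at 0.023 CPM with 0 in the others) and Tnfsf4 (0.867, at 0.253 CPM with 0.083–0.0974 in the others). It was also highest for Ubd (0.919, at 0.0461 CPM with 0 in the others). Library 43 was lowest of the unstimulated group for Lta (0.923, at 0.0695 CPM with 0.322–0.365 in the others) and Socs1 (0.866, at 3.06 CPM with 4.31–4.54 in the others). Library 45 was lowest of the unstimulated group for Cxcl11 (0.882, at 0.111 CPM with 0.268–0.301 in the others). Library 46 was lowest of the unstimulated group for Ccl6 (0.868, at 117 CPM with 163–171 in the others). Library 57 was highest of the stimulated group for Pgc (0.899, at 0.03 CPM with 0 in the others). Library 58 was highest of the stimulated group for Bmf (0.847, at 26.6 CPM with 15.2–16.6 in the others), C1qb (0.912, at 111 CPM with 63.8–66.9 in the others) and Ctsc (0.853, at 3551 CPM with 2659.5–2775 in the others). It was also highest for Steap3 (0.903, at 1.23 CPM with 0.809–0.843 in the others). Library 55 was lowest of the stimulated group for Hsp90b1 (0.834, at 189 CPM with 194–196 in the others). Library 56 was lowest of the stimulated group for Ido1 (0.866, at 3.61 CPM with 4.68–4.87 in the others) and Il18bp (0.93, at 586 CPM with 623–626 in the others). It was also lowest for Isg20 (0.847, at 97.0 CPM with 114–118 in the others) and Slamf1 (0.928, at 7.12 CPM with 14.1–14.8 in the others). Library 57 was lowest of the stimulated group for Fcgr4 (0.86, at 103 CPM with 137–143 in the others). Library 58 was lowest of the stimulated group for Bax (0.895, at 125 CPM with 163–168 in the others), Cxcl2 (0.883, at 2.49 CPM with 5.67–6.33 in the others) and Gm15056 (0.877, at 9.87 CPM with 20.8–23.1 in the others). It was also lowest for H2-K1 (0.881, at 5996 CPM with 6659–6754 in the others), Traf1 (0.907, at 708 CPM with 776–783 in the others) and Traf2 (0.887, at 127 CPM with 141–143 in the others). Among the unstimulated libraries 44 stood highest for several genes that stimulation raises, among them Ccl5, Cxcl9, Nos2, Siglec1, Mlkl and H2-D1, and the cause was not tested.

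The response at 24 h differed from that at 6 h, by limma's test of the difference over all 16 libraries, for 3885 genes. The differences (24 h minus 6 h, log2) of the 10 genes named for it were 11.94 for Gkn1, 11.72 for Pgc, 11.48 for Gkn2, 10.65 for Clps, 5.86 for Phlda3, -6.82 for Ank2, -6.83 for Zfyve28, -6.91 for Dll1, -7.16 for Itga6 and -8.71 for Mrc1. The first 4 rest mainly on reads in the unstimulated 6 h libraries. No sample was left outside the comparisons.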

How the results depend on the processing

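The count of 3736 genes called at 24 h ran from 3695 to 3765 when 1 library was left out (higher 1634 to 1694, lower 2049 to 2091), and the 3885 genes that differed between times from 3767 to 3922 (positive 1586 to 1698, negative 2178 to 2244). With genotype by title as a term 3739 genes were called and with genotype by tag 3736. With only the 4 libraries whose title and tag name the same genotype 3751 were called, of which 3570 are shared with the same direction. With no minimum fold change 8866 passed at 24 h (4576 higher, 4290 lower) and 8168 between times (4313 positive, 3855 negative), since the minimum was dropped. With a mean of at least 5 CPM, which tests fewer genes, 1254 were higher and 1259 lower at 24 h, and 1184 differences were positive and 1469 negative between times. Under own totals 4119 were called at 24 h, 3333 of them shared with the same direction, and 3173 differences were positive and 1486 negative, as all values shift with the scaling.

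Of 5153 alternative values of 235 named genes, 5038 kept direction and side of the threshold, 33 lost the call and 59 gained it. The other 23, in 9 genes not called in the full comparison, changed sign, and the cause was not tested. Under own totals these were Bcl2 (-0.28), C1qa (-0.32), C1qb (-0.011), Hspa5 (-0.32), Mertk (-0.16) and Tlr1 (-0.091). Under quantile normalization they were Ank2 (0.11), Cybb (-0.085) and Hspa5 (-0.48), and under median centring C1qa (-0.017) and Hspa5 (-0.015). With only the libraries without a genotype conflict they were Ank2 (0.067), Bcl2 (-0.0050) and Ndufa2 (0.071). With 1 library left out the values ran from -0.13 to 0.19 for Bcl2 (negative without 43, 44 or 58), -0.21 to 0.17 for C1qa (negative without 43 or 58), -0.030 to 0.057 for Hspa5 (negative without 43 or 57) and -0.077 to 0.030 for Ndufa2 (positive without 44 or 58). Alternatives for single differences and for list medians were chosen after seeing the data. All 197 values of the 10 named differences kept direction and call, and 818 of 902 values of the 41 list medians moved by less than the spread between replicates. The other 84, in 39 of the lists, moved by more, mostly under own totals or quantile normalization. Some alternatives could not move a fold change, only its p-value or call. These were the prior variance settings, the fold minimum, the fit of all libraries together and the genotype terms, which were balanced in each group. The tallies of kept directions and unmoved medians therefore include values that could not have changed. Depth limits only the genes near the floor, and bulk values cannot separate cell number from RNA per cell.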
